A study of Mus musculus with 6 samples.

Results

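Oxt and Avp encode the precursors of oxytocin and vasopressin, and the arrays carried 1 probe for each, 2 of 10080 spots. They were chosen as the spots whose gene symbol in the platform annotation is Oxt (Entrez Gene 18429) or Avp (Entrez Gene 11998). RNA came from the hypothalamus of male DBA/1 mice, 8 weeks old at injection, a strain in which type II collagen induces arthritis. The collagen group received 100 ul of type II collagen with 100 ul of complete Freund's adjuvant into the skin, and the control group 200 ul of the adjuvant alone, so that the volume of adjuvant cannot be told apart from collagen. Both groups received lipopolysaccharide at day 24 and carried no stated genetic change. Each of 6 in-house printed 2-colour arrays held a collagen sample in one dye and a control sample in the other. They formed 3 biological replicates with 2 arrays each, in opposite dye orientation. The labels do not say whether a replicate was 1 mouse or a pool, so a p-value here measures the spread between these samples, and their number limits the precision.

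Both precursors are made in large neurons of the paraventricular and supraoptic nuclei, which send axons to the posterior pituitary, and Avp is also expressed in the suprachiasmatic nucleus. Each precursor is cut into a 9-residue hormone and a neurophysin that carries the hormone through the secretory granules, and the vasopressin precursor also gives copeptin. Oxytocin acts in milk release, labour and social behaviour. Vasopressin acts in water retention, in vascular tone and, with corticotropin-releasing hormone, on the release of corticotropin. In RefSeq (assembly GRCm38.p6, read for gene names and neighbours), Oxt (plus strand) and Avp (minus strand) are adjacent protein-coding genes on chromosome 2.

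The Oxt spot was read against its local background on 5 of the 6 arrays, and brightly on the replicate 2 arrays alone. The Avp spot was read in both channels in every scan only on the replicate 3 arrays. No difference between collagen and control passed the test for Oxt, and Avp could not be tested. The unit below is the foreground of a spot per pixel divided by its local background, where 1 means no signal above background. Each array had 3 repeat scans, which are not replicates. The dye of each channel is not stated. Cy3 was taken for channel A and Cy5 for channel B, from their order in the labels, and if it were the other way every direction of collagen against control would turn.

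The Oxt spot lay in the third of 12 rows and the last of 4 columns of printing blocks, at row 8 and column 13 of a block of 14 rows and 15 columns. On the collagen-in-Cy5 array of replicate 2 it stood at 25.6, 30.4 and 26.4 times background in channel A (control) over the scans, and at 76.5, 76.6 and 74 times in channel B (collagen). On the other replicate 2 array it stood at 23.8, 26.3 and 18.6 times in channel A (collagen) and at 138, 144 and 98.5 times in channel B (control). On both arrays channel B was the brighter against its background, whichever sample it held. In the last scans of these arrays part of the Oxt spot was saturated, with a share of pixels below saturation of 0.538 and 0.1543. In the second scan of the collagen-in-Cy3 array that share was 0.9708.

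The Oxt spot was dim on both replicate 3 arrays and on 1 array of replicate 1. With collagen in Cy5 it read 2.11 to 2.28 times background in channel A and 3.47 to 4.05 times in channel B on the replicate 1 array. On the replicate 3 array of that orientation the ranges were 1.78 to 2.04 and 3.41 to 4.73 times. With collagen in Cy3 the replicate 3 array gave 2.76 to 2.87 times in channel A and 3.94 to 4 times in channel B. The 3 scans of the replicate 3 array with collagen in Cy3 lay close together. On the collagen-in-Cy5 arrays of replicates 1 and 3, the log2 ratio of collagen over control before any smoothing changed sign between scans. It ran from -0.29 to 0.26 in replicate 1 and from -0.11 to 1.58 in replicate 3. No replicate 1 or replicate 3 value of Oxt reached the lowest replicate 2 value of 18.6 times.

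On the collagen-in-Cy3 array of replicate 1 there was hardly any Oxt signal to measure. The first scan gave 1.3 times background in channel A and 1.07 times in channel B. The second scan gave 1.07 and 0.97 times, the latter below background, and the third had no spot at this position. The only ratio of Oxt on this array therefore came from 1 scan, with a net signal of 29.5% of background in channel A and 6.98% in channel B. In that scan the outline of the spot covered 306 pixels, of which 143 were below saturation, and the channel A background was 44390 per pixel. On the other 5 arrays the Oxt spot covered 156 to 204 pixels.

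**Figure D1:**
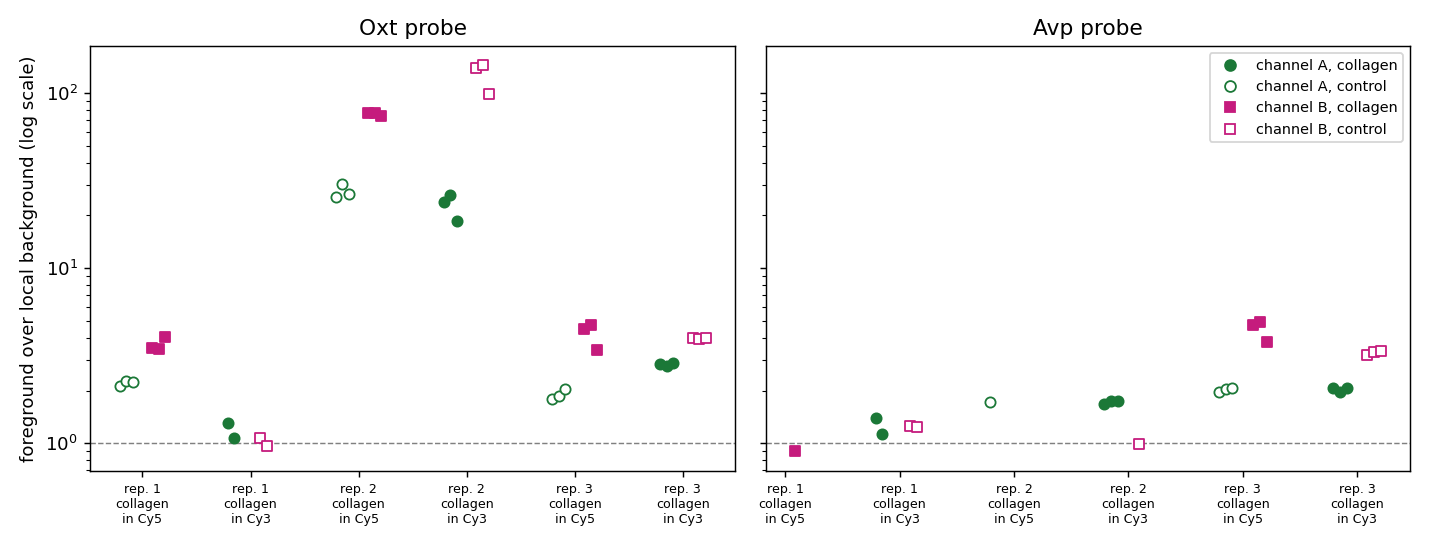
Foreground over local background (log scale) of the Oxt probe (left) and the Avp probe (right) on each array, 1 point per scan in which the channel was kept; circles are channel A, squares channel B, filled symbols the collagen sample and open symbols the control sample, and the dashed line is 1. Oxt exceeded 18 times background only on the replicate 2 arrays, and Avp had points in both channels in all 3 scans only on the replicate 3 arrays.

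The study set arthritic mice, as its title calls them, against control mice, and no measure of arthritis is used here. Log2 ratios of collagen over control for Oxt, after loess smoothing against intensity, were 0.59 with collagen in Cy5 and 5.47 with collagen in Cy3 in replicate 1. They were 0.50 and 0.18 in replicate 2, and 0.25 and -0.47 in replicate 3. The ratio was above 0 on 5 of 6 arrays, as it was for 99 of 2316 tested probes (4.27%) on at least 5 of 6, while 6 probes (0.259%) were above 0 on all 6. A single array, the one of replicate 1 on which the Oxt spot was near background, stood far above the other 5.

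Averaged over the 2 orientations, the Oxt log2 ratio was 3.03 in replicate 1, 0.34 in replicate 2 and -0.11 in replicate 3. The mean was 1.09 ± 0.60 (SE, n = 3), with a 95% interval of -0.41 to 2.58 and a limma adjusted p of 0.872. It did not pass the threshold, nor did any of the 2316 tested probes (0%), of which 25 (1.08%) had an unadjusted p under 0.05. The SD of the 3 Oxt replicates was 1.70, larger than their mean. An exact sign-flip permutation test over the 3 replicates gave a two-sided p of 0.5, where 3 replicates cannot go below 0.25. Only 2 tested probes had a larger absolute mean ratio than Oxt, and its interval was wide, against a median half-width of 0.45 over all tested probes.

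Without the collagen-in-Cy3 array of replicate 1, the Oxt log2 ratio was 0.27 ± 0.16 (SE, n = 3; limma adjusted p = 0.98). Without replicate 1 it was 0.12 ± 0.16 (SE, n = 2; limma adjusted p = 1). That array moved the Oxt value by more than the value left without it. The replicate 2 arrays, where Oxt was bright, gave a difference between orientations of 0.32 on the log2 scale, against a median of 0.51 over the tested probes in that replicate. In replicate 3 the Oxt difference was 0.72 against a median of 0.38, and in replicate 1 it was 4.88 against 0.98. Oxt therefore repeated between the dye orientations more closely than the median probe in replicate 2 and less closely in replicates 1 and 3.

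Before smoothing, the Oxt log2 ratio of the replicate 2 arrays over all 3 scans was 0.61 with collagen in Cy5 and -0.96 with collagen in Cy3. The net signal of Oxt thus followed the channel and not the sample on these arrays. Raw ratios of other spots were not set beside it, so this is not shown to be particular to Oxt. After loess both array values were above 0, but the one with collagen in Cy3 rested on its only unsaturated scan. That scan read -1.13 before loess and 0.18 after it. The partly saturated scans of that array read 0.16 and -0.03 after loess.

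Oxt was also set against the other spots of its printing block on the same array. On the collagen-in-Cy3 array of replicate 1, the median log2 ratio of the other block spots was 2.86, and the 5 of 8 adjacent spots with a ratio had a median of 3.06. On the other 5 arrays the block medians lay between -0.19 and 0.30. The tested probes of the fourth column of blocks had a median of 0.57 on that replicate 1 array, and those of the other 3 columns one of -0.63. The whole block thus stood high in the collagen channel there, and Oxt stood above 96.7% of its block. After each block was centred on its median, Oxt read 0.45 and 1.86 in replicate 1, 0.20 and 0.35 in replicate 2, and 0.17 and -0.30 in replicate 3, with a mean of 0.46 ± 0.24 (SE, n = 3; limma adjusted p = 0.945). Loess within printing blocks gave a mean of 0.50 ± 0.30 (SE, n = 3; limma adjusted p = 0.957).

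The channel A background per pixel of the Oxt block had a median of 13080 on the collagen-in-Cy3 array of replicate 1, and that of the Avp block was 14540. On the other 5 arrays both blocks lay between 551 and 1001. The SD of log2 ratios over all spots was 1.66 on that array and 0.38 to 0.67 on the others. The part of this background in the Oxt and Avp ratios was not tested, beyond the values without the array.

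The authors' deposited table held an Oxt log ratio on 5 arrays and none on the collagen-in-Cy3 array of replicate 1. In the authors' deposited table Oxt was at 0.281 in replicate 1, at 0.537 and 0.115 in replicate 2 (collagen in Cy5, then in Cy3), and at 0.270 and 0.002 in replicate 3. Its base and direction were not given. The natural log was inferred, and every value was taken as collagen over control. Turned to log2 on that reading, the 3 replicates gave an Oxt mean of 0.36 ± 0.09 (SE, n = 3), with a limma p of 0.0104 and an adjusted p of 0.963. All 5 of the authors' values for Oxt were above 0 as deposited. Were they Cy5 over Cy3 instead, those with collagen in Cy3 would change sign, and the mean would change too.

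**Figure D2:**
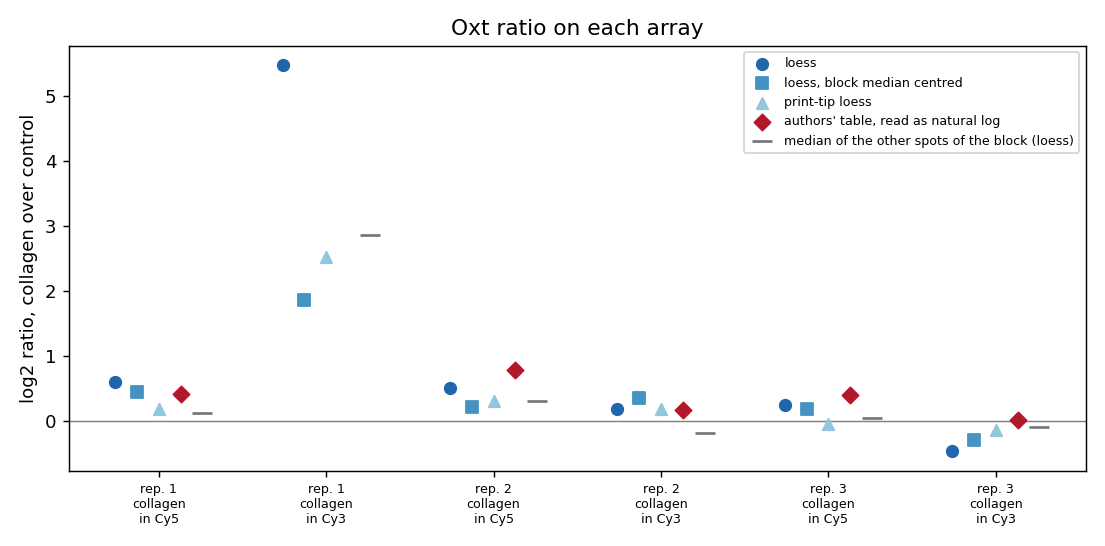
Log2 ratio of collagen over control for the Oxt probe on each array after loess (circles), after loess and centring on the printing block (squares), after loess within printing blocks (triangles) and in the authors' table read as natural logs (diamonds), with the median of the other spots of its block after loess (grey bars). The collagen-in-Cy3 array of replicate 1 stands apart at 5.47, where the block itself is at 2.86 and the authors gave no value; on the other 5 arrays all points lie between -0.47 and 0.78.

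The Avp spot lay in the second row and the last column of blocks, at row 5 and column 15 of its block, which is the last of the 60 spot columns of the slide. A ratio of collagen over control could be formed on 3 of the 6 arrays, so Avp was not among the 2316 probes tested, which were 23.0% of all spots.

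On the collagen-in-Cy5 array of replicate 1, Avp was rejected in both channels in 2 scans, and in the other scan the collagen channel was kept at 0.899 times background. On the collagen-in-Cy5 array of replicate 2, channel A (control) was kept in 1 scan, at 1.71 times background, and channel B was rejected in all 3. On the collagen-in-Cy3 array of replicate 2, channel A (collagen) read 1.67, 1.74 and 1.74 times background, and channel B (control) 0.996 times in the scan where it was kept. Avp was thus at or below background in channel B wherever a value was kept on these 3 arrays, in either sample.

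On the replicate 3 arrays the Avp spot was kept in both channels in all 6 scans. With collagen in Cy5 channel A (control) read 1.97, 2.03 and 2.06 times background and channel B (collagen) 4.74, 4.93 and 3.81 times. With collagen in Cy3 channel A (collagen) read 2.08, 1.97 and 2.07 times and channel B (control) 3.18, 3.32 and 3.35 times. Here too channel B was the brighter against its background in both orientations. A probe read on both replicate 3 arrays and on neither replicate 2 array was common, at 2174 of 10080 spots (21.6%).

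The Avp log2 ratio in replicate 3 was -0.03 with collagen in Cy5, where scans ran from -0.11 to 0.02, and -0.79 with collagen in Cy3, where they ran from -0.95 to -0.53. Their mean was -0.41, and the arrays differed by 0.76, against a median of 0.38 over the tested probes. On the third array with a ratio, the collagen-in-Cy3 array of replicate 1, Avp read 3.35 from 2 scans of 4.55 and 2.16, at 1.13 to 1.39 times background. The median of the other spots of the Avp block was 2.57 there. The Avp ratio was below 0 on both replicate 3 arrays and above 0 on an array where its block was also high, and with 1 full replicate no test of collagen against control was possible. The authors' deposited table gave Avp a value on the replicate 3 arrays alone, 0.112 with collagen in Cy5 and -0.240 with collagen in Cy3. Its sign thus differed between the orientations if the values are collagen over control, the direction taken here.

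Oxt and Avp shared the last column of blocks and the upper part of the slide, and the brightness of that region differed between arrays. In the Oxt block, 16 and 6 of 210 spots exceeded 10 times background in both channels on the replicate 2 arrays with collagen in Cy5 and in Cy3, and 0 on each of the other 4 arrays. In the Avp block the counts were 9 and 5 on the replicate 2 arrays and 1, 0, 1 and 1 on the others. On the replicate 2 arrays these were 7.62% and 2.86% of the Oxt block and 4.29% and 2.38% of the Avp block. All other blocks together had 4.25% and 2.92% there, and 0.46% to 2.64% on the other 4 arrays. The bright reading of Oxt in replicate 2 was thus shared by other spots of its block and was not found there on any other array. Avp was not bright in replicate 2, although other spots of its block were.

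Over block rows 1 to 5, which hold 4200 spots, 250 and 130 spots were that bright on the replicate 2 arrays, and 3 to 12 on the other 4. Over block rows 8 to 12 the counts were 82 and 81 on the replicate 2 arrays and 39 to 194 on the others. The gap between replicate 2 and the other replicates was thus seen in the upper rows, which hold Oxt and Avp, and not in the lower ones. Of 253 spots over 10 times background in both channels on both replicate 2 arrays, 78 (30.8%) were dim on all others. Dim meant under 5 times background in the dimmer channel, or no value in a channel. Oxt was among these 78, and 77 of them (98.7%) lay in block rows 1 to 5. Few spots of these rows were bright on the other arrays, so the choice of dim spots itself favoured them.

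Across the spots of the Oxt block, log channel A brightness at the same position correlated at 0.93 between the replicate 2 arrays. This was a Pearson correlation over 206 spots of 1 block, which share position and background. Channel A held the control sample with collagen in Cy5 and the collagen sample with collagen in Cy3. Net signal was divided by the whole spot area, saturated pixels included. All other pairs of arrays gave -0.07 to 0.24 in this block. In the Avp block the replicate 2 pair correlated at 0.92 and the other pairs at 0.02 to 0.55. In channel A the order of bright and dim spots around Oxt was thus repeated within replicate 2 and in no other pair of arrays. Whether the difference in Oxt brightness between replicates came from the RNA or from the upper part of the slides was not tested, and no level of Oxt is set between replicates for that reason.

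**Figure D3:**
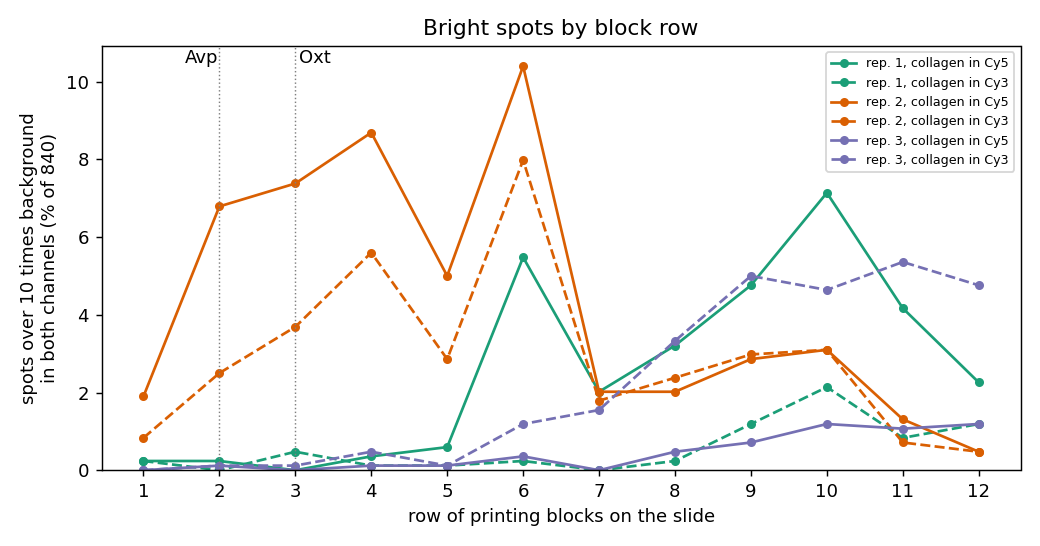
Percentage of the 840 spots in each row of printing blocks that exceeded 10 times local background in both channels, 1 line per array; solid lines have collagen in Cy5, dashed lines in Cy3, and dotted verticals mark the rows that hold Avp (row 2) and Oxt (row 3). In rows 1 to 5 only the replicate 2 arrays rise above 1%, while in rows 8 to 12 all 6 arrays have bright spots.

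The tissue was checked with marker genes, counting spots over 10 times background in both channels on any array, as 685 of all 10080 spots (6.8%) were. Of 11 hypothalamic marker probes 2 were that bright, against 0 of 4 for anterior pituitary, 0 of 2 for posterior pituitary and 1 of 7 for thalamus and cortex, so these counts do little to tell the tissues apart. The lower bar of 1.5 times background in 1 channel was passed by 90.1% to 99% of all spots on an array, and by all 11 hypothalamic and all 4 anterior pituitary probes on every array. Pmch, the precursor of melanin-concentrating hormone made in the lateral hypothalamus, exceeded 10 times background in both channels on all 6 arrays, from 14.6 to 47.3 times in the dimmer channel. Its spot lies in block row 11, outside the upper rows that hold Oxt. Cartpt, another hypothalamic peptide precursor, lies in block row 3 like Oxt and reached 16.4 and 9.16 times in its dimmer channel on the replicate 2 arrays but at most 2.36 times on the other 4. Pmch and Cartpt were the 2 bright probes of the 11. The rest reached at most 7.29 times in the dimmer channel (Gal). Hcrt, Sst, Trh and Sim1 were not kept in both channels on every array and reached at most 2.23, 1.82, 3.32 and 1.49 times. In RNA of whole hypothalamus, fewer Oxt or Avp neurons and less RNA per neuron cannot be told apart.

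Other genes of the 2 hormone systems were taken from a list of 42, which covers receptors, processing enzymes, granule and release proteins, peptides made in the same neurons, and transcription factors of that lineage. A named probe was found for 25 in the table used here, of which 8 had a ratio on all 6 arrays and were tested. Of these 8, 0 rose and 0 fell at the adjusted threshold, beside 0% of all tested probes, and 0 had an unadjusted p under 0.05. Ratios were above 0 for 3 and below 0 for 5, beside 781 above and 1535 below among all tested probes. The 8 had a median log2 ratio of -0.22 against -0.09 over all tested probes. Without replicate 1 the medians were -0.10 and -0.01.

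Among the receptors, 2 of 4 had a named probe. Avpr1b, the vasopressin receptor of pituitary corticotrophs, averaged 0.58 ± 0.31 on the log2 scale (SE, n = 3; limma adjusted p = 0.872). It read 3.40 on the collagen-in-Cy3 array of replicate 1, against -0.51 to 0.39 on the other 5, and its spot lay in the last column of blocks, as those of Oxt and Avp did. It never exceeded 3.03 times background. Avpr2, the renal receptor through which vasopressin retains water, had a ratio on the replicate 3 arrays only, at -0.47 and 0.31. No named probe was found for Oxtr or Avpr1a, so the main brain receptors of both hormones are not analysed here.

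Pam makes the amide at the end of both hormones. Its log2 ratio was -0.34 ± 0.22 (SE, n = 3), from -1.97 on the collagen-in-Cy3 array of replicate 1 and values of -0.22 to 0.19 elsewhere. Prep, a peptidase that cleaves after proline and can degrade both hormones, was at 0.06 ± 0.18. Cpe, which trims basic residues from precursor fragments, had a ratio on 3 arrays and was not tested. Neither Pam nor Prep passed the threshold, with limma adjusted p of 0.872 and 0.932.

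Scg3, a granule protein that binds chromogranin A, lay in the same block as Oxt and was tested at 0.17 ± 0.21 (SE, n = 3; limma adjusted p = 0.872). Like Oxt it was brightest in replicate 2, with 11.2 and 19 times background in channels A and B on the collagen-in-Cy5 array of replicate 2 and 5.82 and 34.1 times on the other. On the replicate 1 and replicate 3 arrays it read 1.17 to 2.31 times. Its log2 ratio was 1.85 on the collagen-in-Cy3 array of replicate 1, at 1.17 and 1.18 times background, and -0.51 to 0.41 elsewhere. Scg2, the secretogranin II precursor, lay in block row 8 and was bright on 3 arrays, 1 of them in replicate 1 at 29.8 and 97.5 times, and its log2 ratio was -0.23 ± 0.15. Stx1a, a syntaxin of vesicle fusion, ran from -1.21 to 0.61 over the replicates (mean -0.22 ± 0.35). Stx1a read -2.21 on the collagen-in-Cy3 array of replicate 1 and -0.41 to 0.69 elsewhere. Snap25, its partner at the membrane, had a ratio on the replicate 3 arrays alone, like Avp in full scans, but at 6.11 to 31.2 times background.

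Pdyn, the dynorphin precursor made by vasopressin neurons, averaged -0.45 ± 0.20 on the log2 scale (SE, n = 3; limma adjusted p = 0.872). It was below 0 on all 6 arrays, as were 12 of 2316 tested probes (0.518%). It read -1.73 on the collagen-in-Cy3 array of replicate 1 and from -0.43 to -0.01 elsewhere. Gal, the galanin precursor, which is also found in vasopressin neurons, was at -0.26 ± 0.16 with replicate values of -0.35, -0.10 and -0.33. Sim1 and Otp, transcription factors needed for the neurons that make both hormones, had a ratio on 1 and 4 arrays and were not tested.

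The tested probes most like Oxt in log2 ratio over the 6 arrays were AF067063, Vsig2, Vegfb, Med31 and Snai1, with Pearson correlations of 0.997 to 1.00 among 2129 candidates. All 5 lay at 1.58 to 2.93 on the collagen-in-Cy3 array of replicate 1, but elsewhere at -0.39 to 0.36. A correlation above 0.9 with Oxt was found for 206 candidates, and 167 of these lay in the fourth column of blocks, which held 591 candidates. Without that array the 5 correlations were 0.94 to 0.99 over 5 arrays. The 5 probes had been picked on a correlation that includes these 5 arrays, so the values are no separate check of likeness. Of the 5 probes, 3 lay in that column, and Vegfb and Snai1 did not.

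**Figure D4:**
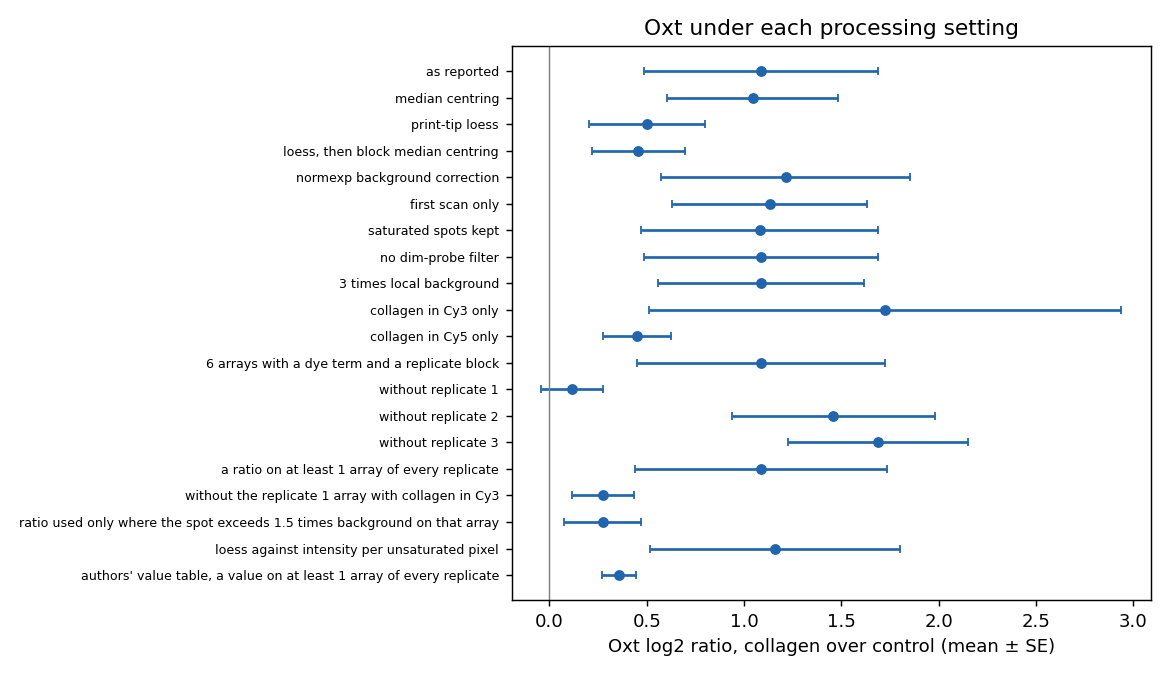
Mean log2 ratio of collagen over control for the Oxt probe under each processing setting that gave a value, with its standard error (3 replicates; 2 where a replicate is left out). All means are above 0, from 0.12 without replicate 1 to 1.73 with the collagen in Cy3 arrays alone, and leaving out the collagen-in-Cy3 array of replicate 1 alone gives 0.27.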

How the data were processed

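The deposited scan files gave, per the file headers, background-subtracted intensity in channels A and B, summed over the pixels of a spot, with a local background, an area in pixels and a saturation factor. A rejected channel held 0. The saturation factor was read as the fraction of pixels below saturation, and in the deposited intensities the sums covered only those pixels. This was checked on 640 spot scans with a share under 0.5, where background per pixel was 1.1 times the block median on that reading and 0.17 times with all pixels. The authors' deposited table held 1 log ratio per probe and array, read as natural log of collagen over control. Its slopes on natural-log ratios of bright spots were 0.63 to 1.13, and its column medians lay near 0, from -0.018 to 0.0015. Quantification software is not given in the sources used here. Rows were sorted by block and spot position to match the 10080 table rows, of which 9066 had 1 gene symbol, 12 several and 1002 none.

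The planned normexp correction was kept as an alternative, since the deposited intensities had their background removed. Log2 ratios of spots above 0 in both channels were smoothed by loess (span 0.3) in each scan. The 3 scans were then averaged, dropping saturated ones if an unsaturated one was left. Signs were set so that a positive value means more in the collagen sample, and each replicate was the mean of its arrays. Spots had to exceed 1.5 times background in 1 channel on 4 of 6 arrays, which dropped 0 of 2316 probes that had ratios on every array. Between 46.1% and 84.9% of spots had a ratio on an array. Replicate means were tested against 0, two-sided, with limma 3.58.1 in R 4.3.3 and Benjamini-Hochberg adjustment over the 2316 probes, threshold 0.05. The named genes are the 2 probes, the tested probes of the list of 42 genes, with untested ones mentioned for their role, and the 5 probes most correlated with Oxt. Cartpt, Pmch and Scg2's brightness were singled out after their values were seen. The probes and gene lists were chosen with earlier results of these data known. Replicate numbers come from the sample titles and mark the 2 arrays of a biological replicate. Figures were drawn with matplotlib 3.10.9. The alternatives are given in the closing section. The sequences of the probes and of the precursors are not used here.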

Additional observations from a re-analysis of the deposited data

Results flagged for a closer look

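On 1 array, that of replicate 1 with collagen in Cy3, the log2 ratio of collagen over control stood far from the other 5 arrays for Oxt and for 3 genes of the hormone list. Oxt read 5.47 there against -0.47 to 0.59 elsewhere. Avpr1b read 3.40, in the same direction and in the same column of printing blocks as Oxt, while Pam read -1.97 and Pdyn -1.73, in blocks of the third and second columns. These are 4 of 10 sets of 6 values checked for a gap between the highest or lowest array and the next (the ratios of Oxt and the 8 tested genes of the list, and the brightness of Oxt), a rule that chance meets in about 1 of 20 groups. Stx1a and Scg3 also had their most distant values on that array, -2.21 and 1.85, but did not meet the rule. The arrays are pairs from 3 replicates, so the 6 values of a gene are not independent. The share of all tested probes that meet the rule was not counted, so 4 of 10 is not shown to be particular to these genes. On the collagen-in-Cy3 array of replicate 1 the SD of log2 ratios over all spots was 1.66, against 0.38 to 0.67 on the others. The Oxt spot was at 1.02 to 1.18 times background there by the median over scans, and the fourth column of blocks had a median log2 ratio of 0.57 against -0.63 in the other 3. The cause was not tested.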

How the results depend on the processing

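The Oxt log2 ratio stayed above 0 and short of the adjusted threshold under all 19 alternatives that gave it a value, from 0.12 to 1.73, with limma adjusted p of 0.306 to 1 and an unadjusted p under 0.05 in 5. Some of these could not move the mean of 1.09, as Oxt had a ratio on all 6 arrays. They were no dim-probe filter, a filter at 3 times background, 1 array per replicate allowed, and the fit of 6 arrays below. Leaving out replicates 1, 2 and 3 gave Oxt 0.12, 1.46 and 1.69. Loess within blocks gave 0.50, block centring 0.46, normexp 1.21, median centring 1.05, the first scan 1.13 and all spots with saturated pixels 1.08. Collagen in Cy5 alone gave 0.45 (limma adjusted p = 0.306) and collagen in Cy3 alone 1.73. Alternatives chosen after seeing the data gave 0.27 without the collagen-in-Cy3 array of replicate 1 or with ratios only above 1.5 times background, 1.16 with loess per unsaturated pixel, and 0.36 from the authors' table with 1 array per replicate allowed. Fitting 6 arrays with a dye term and a replicate block gave Oxt 1.09 ± 0.64 (limma adjusted p = 0.833), with a correlation of -0.19 within replicates, and changed no call. Avp in replicate 3 ranged from -0.79 to -0.03 over 17 alternatives, and the ends of this range are its single arrays. Its mean of -0.41 could not move with saturated spots kept, no dim-probe filter or a filter at 3 times background. Nor could it with 1 array per replicate allowed or ratios only above 1.5 times background. Setting rejected Avp channels to the lowest kept signal gave 0 on both replicate 2 arrays, which carries no information there. With collagen in Cy5 alone, 27 of 2834 probes passed the threshold, 1 higher and 26 lower, and Oxt was not among them. Avp was not one of the 2834, as it had no ratio on the collagen-in-Cy5 arrays of replicates 1 and 2. All other settings gave 0 probes. The second scan alone, the third scan alone and the authors' table over 6 arrays gave Oxt no value, and leaving out replicates or a replicate block gave Avp none. Signal over background limits Avp on 4 arrays and Oxt on 1.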
